A study of Homo sapiens with 18 samples.

Results

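The genes described here are 9 human genes of nucleotide, pyrophosphate and polyamine synthesis: NME1, NME2, PPA1, IMPDH2, CAD, PAICS, CTPS1, SRM and ODC1. A peak was counted for one of them where it overlapped the annotated span of the gene by at least 1 bp. By this rule the genes held 1 of the 103 peaks of the 3A list, 0 of the 88 peaks of the 7A list and 19 of the 2149 peaks of the wild-type list. The genes were chosen by the number, position, rank and overlap of their peaks in these same lists, so these values are given as a description, and no test was made on them.

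The peaks come from enhanced crosslinking and immunoprecipitation (eCLIP), which maps the RNA fragments that ultraviolet light has joined to a protein. The cells were of the human osteosarcoma line U2OS, without endogenous MYC (U2OS-MYC-KO) and with a FLAG-tagged MYC under doxycycline control. There were 3 forms of MYC, the mutants MYC-3A and MYC-7A and the wild type MYC-WT, and the labels do not give the residues changed. For each form, 2 FLAG precipitates and 1 input were made from cells given 1 µg/mL doxycycline for 24 h, and as many from cells given PBS for 24 h, 18 libraries in 12 groups. The 3 peak lists used here belong to the doxycycline-treated precipitates, with 1 list for each form of MYC. Lists for PBS-treated cells were not analysed here, so no background without induced MYC was measured. With 1 list per form, no difference between the forms could be set against a spread between replicates, and the depth behind each list is unknown.

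MYC is a transcription factor that binds DNA at the E-box, of which CACGTG is the classical form, and many genes for nucleotide and polyamine synthesis are among its known transcriptional targets. Purine nucleotides are built on a ribose phosphate in a chain of steps in which PAICS acts midway and IMPDH2 turns the product towards guanine nucleotides. CAD carries out the opening steps of pyrimidine synthesis, and CTPS1 makes CTP from UTP. NME1 and NME2 are nucleoside diphosphate kinases, which exchange the terminal phosphate between nucleotides. PPA1 cleaves pyrophosphate, a by-product of many biosynthetic reactions. ODC1 makes putrescine, the first polyamine, and SRM makes spermidine from it.

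Of the 9 genes, 8 held a wild-type peak, and CTPS1 held none in any of the 3 lists. Among all 20056 annotated protein-coding genes, 6.78% held a wild-type peak, and the share was 7.59% among the 10944 whose spans lay within the range of these genes (5074 to 54072 bp). NME1 and PAICS held 4 wild-type peaks each, NME2 and SRM held 3 each, IMPDH2 held 2, and CAD, PPA1 and ODC1 held 1 each. Of the 1359 protein-coding genes with a wild-type peak, 29.6% held at least 2, 12.1% at least 3 and 5.59% at least 4. In the mutant lists, PPA1 alone held a 3A peak, where 0.359% of protein-coding genes did so. No gene of the group held a 7A peak, where 0.269% of protein-coding genes did so.

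**Figure D1:**
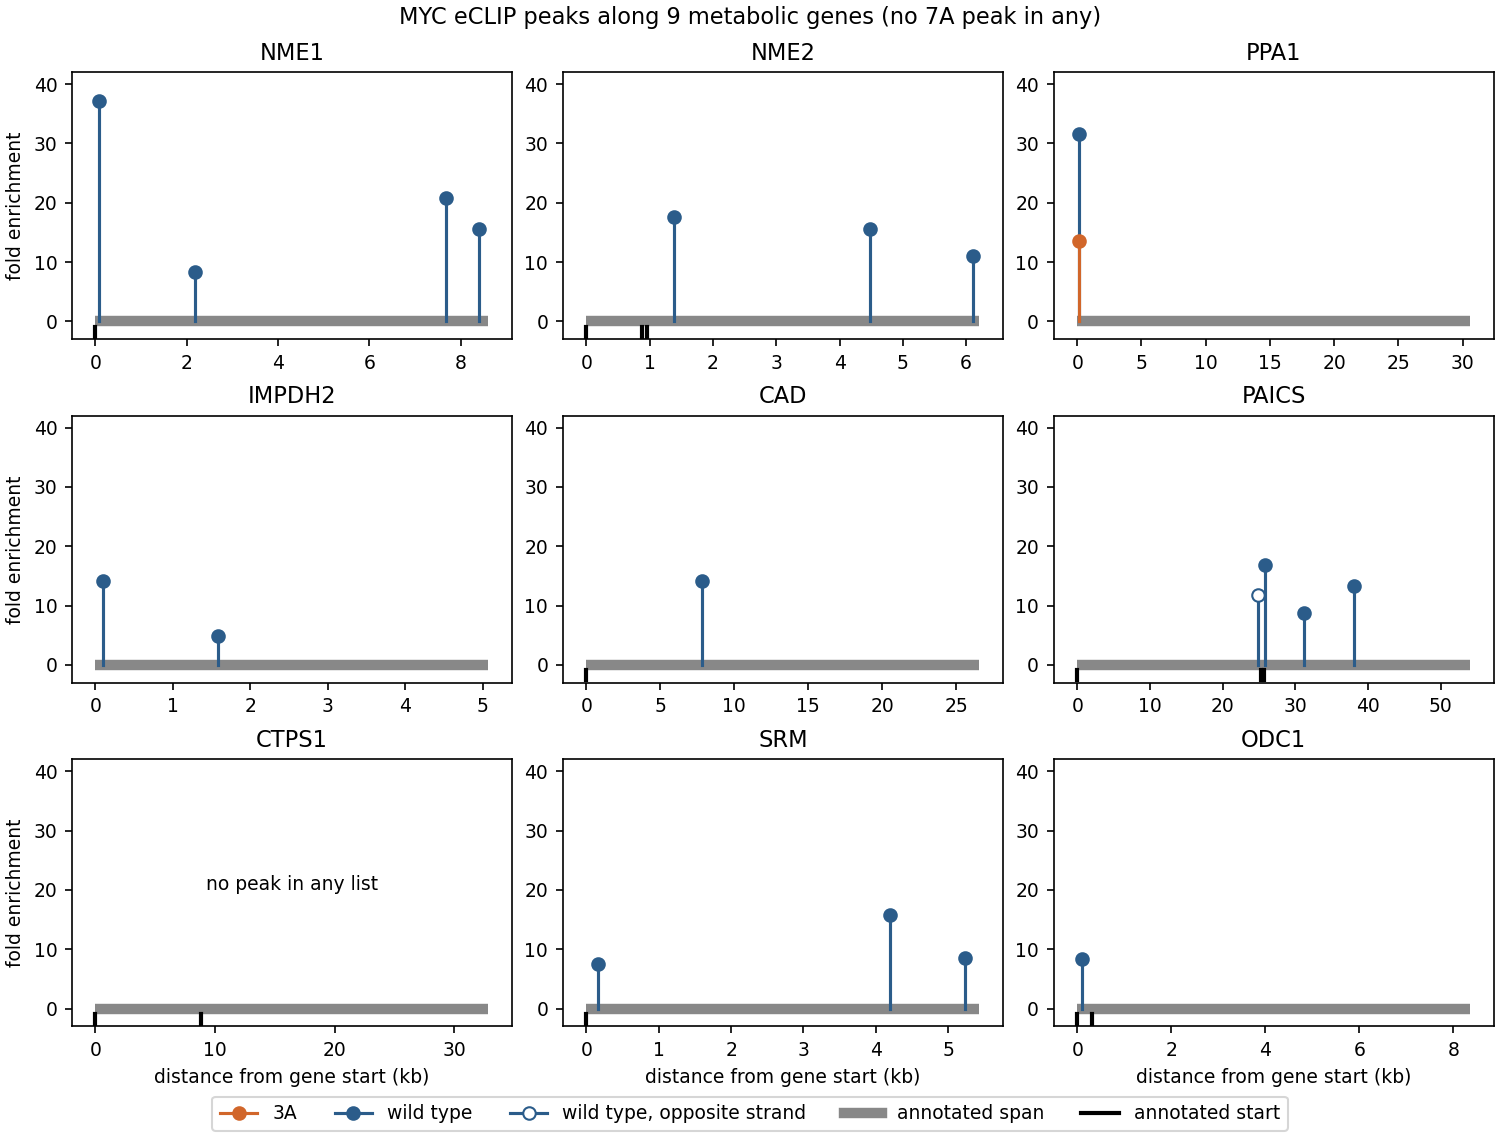
Position of each peak summit along the 9 genes, as the distance from the gene start in kb, against the authors' fold enrichment of the peak (points on stems; 3A in orange, wild type in blue). The open point in PAICS is a peak on the strand opposite to the gene, grey bars are the annotated spans and black ticks the annotated starts, which were at hand for 7 of the genes. Fold enrichments of the 2 lists are each on the scale of their own list. NME1, PPA1, IMPDH2, SRM and ODC1 have a wild-type peak at the very start of the span, CAD, NME2 and PAICS have none there, and CTPS1 is empty.

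The wild-type peaks of these genes ran from a fold enrichment of 4.82, in IMPDH2, to 37.1, in NME1. Fold enrichment is the authors' value for each peak over a control that the sources used here do not name, and it is ranked here only within its own list. The median over the 19 peaks was 14.1, against 8.11 over all 2149 wild-type peaks, and 17 of the 19 lay above 8.11. The median −log10 q, the authors' measure of significance for a peak, was 29.3 over the 19 peaks and 17.8 over all wild-type peaks, and 14 of the 19 exceeded 17.8. The median rank of the 19 peaks was 14.5% of the way down the list by fold enrichment and 27.2% by −log10 q. Their median width was 169 bp, against 165 bp over the whole list.

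**Figure D2:**
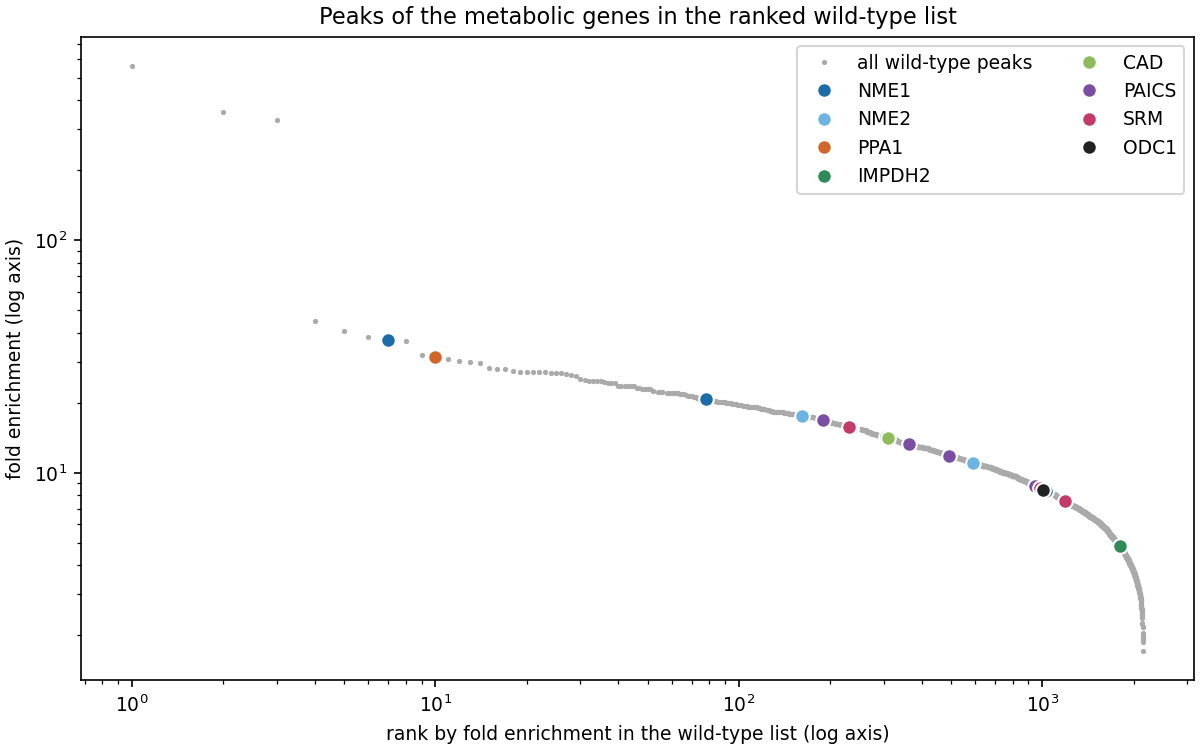
All 2149 wild-type peaks by rank (x, log axis) and fold enrichment (y, log axis), with the peaks of the metabolic genes as coloured points. NME1 stands at rank 7 and PPA1 at rank 10, and the lowest point is the second IMPDH2 peak at rank 1799.

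Of the 19 wild-type peaks, 5 had a summit no more than 500 bp from where the gene's span starts, 1 in each of NME1, PPA1, IMPDH2, SRM and ODC1. NME2 and PAICS have further annotated starts inside their spans. With any annotated start allowed, and only peaks on the strand of the gene counted, 7 peaks in 7 genes lay at a start (36.8%, 95% Wilson interval 19.1 to 59.0, for counting error over peaks only). The minus-strand peak in PAICS, whose summit lies within 500 bp upstream of a PAICS start, is thus not among them. For PPA1 and IMPDH2, also among the 7 genes, no annotated start or strand was at hand. Their span start on the strand of the peak was used, so the strand condition could not fail there. For comparison, each of the 1980 wild-type peaks in protein-coding genes was assigned to the shortest such gene it overlapped. By the same distances, 42.1% of them lay at the start of a span and 47.0% at any annotated start. The 19 peaks were instead set against the chosen gene, and the minus-strand PAICS peak also lies in PPAT, 210 bp from its start. The 7 summits lay 80 to 413 bp downstream of the nearest start. Their median fold enrichment was 16.9, and that of the 12 other peaks, the minus-strand PAICS peak included, was 12.6. Over all wild-type peaks in protein-coding genes the medians were 8.43 for 930 peaks at a start and 7.61 for the 1050 others. At the other end of the genes, 3 of the 19 summits lay within 500 bp of the end of the span, 1 each in NME1, NME2 and SRM. The share of all wild-type peaks near a gene end was not measured, so this count has no comparison.

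The bases around these starts show where the peaks begin. Each line covers 30 bases before and 30 bases from an annotated start on the sense strand, from RefSeq's GRCh38.p14 (the assembly of hg38), and capitals mark the bases inside a wild-type peak. RefSeq windows were at hand for 7 of the 9 genes, not for PPA1 and IMPDH2. NME1, PAICS and ODC1 are shown because a peak begins within the stretch, SRM because its peak begins further on, and CAD and CTPS1 because no peak lies at their starts.
NME1 (chr17:51153529-51153588, plus strand): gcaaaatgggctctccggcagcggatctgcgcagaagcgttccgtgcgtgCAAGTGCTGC
PAICS (chr4:56436230-56436289, plus strand): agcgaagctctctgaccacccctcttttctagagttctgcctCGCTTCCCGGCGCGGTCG
ODC1 (chr2:10448298-10448357, minus strand): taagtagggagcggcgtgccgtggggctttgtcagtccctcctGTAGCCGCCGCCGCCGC
SRM (chr1:11059989-11060048, minus strand): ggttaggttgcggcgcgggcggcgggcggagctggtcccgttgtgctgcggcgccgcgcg
CAD (chr2:27217339-27217398, plus strand): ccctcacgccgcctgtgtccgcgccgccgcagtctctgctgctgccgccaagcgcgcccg
CTPS1 (chr1:40979666-40979725, plus strand): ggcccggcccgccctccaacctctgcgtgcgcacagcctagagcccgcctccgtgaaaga
In the first 3 genes no base upstream of the start shown lay in a peak. This does not hold for the second annotated start of ODC1, where all 60 bases of the same stretch lay in the peak. From the start shown, the peak began 20 bp downstream in NME1, 12 bp in PAICS, 13 bp in ODC1 and 77 bp in SRM. For IMPDH2 and PPA1 the start was taken as the end of the span that comes first on the strand of the peak, and the peak began 8 bp downstream in IMPDH2 and 37 bp downstream in PPA1.

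The E-box CACGTG, which reads the same on both strands, was searched in the RefSeq windows from 250 bases before to 50 bases after each annotated start. It was the only motif searched. It was found in 4 of the 13 windows of these genes, 1 each of NME1, PAICS, SRM and ODC1, and in no window of NME2, CAD or CTPS1. Of all 22199 windows of protein-coding genes, 8.34% held it, and 10.9% of the 15843 genes had it in at least 1 window. The 4 windows with it had a GC content of 57.3% in NME1, 68.3% in PAICS, 82.0% in SRM and 80.7% in ODC1. The median over the windows of protein-coding genes was 62.3%. The shares were not matched for GC content, and the difference between them was not tested. The sites are given with the E-box in capitals, read in the direction of transcription, because 3 of the 5 fell inside a wild-type RNA peak.
NME1 (chr17:51153579-51153608): caagtgctgcgaacCACGTGggtcccgggc
ODC1, upstream site (chr2:10448024-10448053): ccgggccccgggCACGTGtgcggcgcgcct
ODC1, downstream site (chr2:10447990-10448019): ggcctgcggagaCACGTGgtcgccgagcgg
PAICS (chr4:56435772-56435801): ctggaaagctgtatttgctgCACGTGgaaa
SRM (chr1:11060200-11060229): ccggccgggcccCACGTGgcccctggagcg
In NME1 the E-box begins at base 35 from the start and lies inside the peak of highest fold enrichment of the group. Both ODC1 sites lie at its second annotated start, 29 bases before and 6 bases into it, and inside the single ODC1 peak, which also covers the first start's early bases. The PAICS and SRM sites lay outside every wild-type peak, that of SRM 199 bases before the start. Among 388 windows of protein-coding genes that a wild-type peak on the gene's strand reached, with a median of 23 bases covered, 6 (1.55%) held the E-box in the covered part. Those of NME1 and ODC1 are among the 6, as is the window of NME1-NME2, which has the same start as NME1. The rest of each peak was not searched, since no sequence was at hand for it, and eCLIP reads RNA, so a match in these letters is no measure of MYC on DNA.

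The nucleoside diphosphate kinase genes NME1 and NME2 lie next to each other on the plus strand of chromosome 17 and together held 7 wild-type peaks. The annotation also has NME1-NME2, a readthrough gene spanning both, so each of the 7 peaks could belong to it. The NME1 peak at the start (chr17:51153579-51153714) had a fold enrichment of 37.1 with a −log10 q of 79.5. It ranked 7 of 2149 by fold enrichment and 103 by −log10 q. The peak ranked just above it by fold enrichment lay in SPOCK3, a proteoglycan gene, with 38.3.

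The other NME1 peaks were weaker and lay mainly near the far end of the gene. A peak 2185 bp into the gene had a fold enrichment of 8.32, rank 1030. The next summit, 7684 bp from the start, had 20.7 and stood at rank 78, between peaks of the proteasome subunit gene PSMA7 (20.7) and the ribosome-associated scaffold gene RACK1 (20.7). The last, 202 bp before the end of the span, had 15.6. The highest and lowest NME1 peaks thus differed 4.46 times, the widest spread within any gene of the group.

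In NME2 the 3 peaks were closer to each other in height. The first (chr17:51166767-51166976) had a fold enrichment of 17.6 with a −log10 q of 62.4. Its summit lay 1378 bp into the span and 413 bp downstream of the nearest of 3 annotated starts. The second had 15.6 and the third, 94 bp before the end of the span, had 11.1, so the highest exceeded the lowest 1.59 times. The second NME2 peak and the last NME1 peak had the same fold enrichment and the same −log10 q (29.3). Such ties were common, since 916 of the 2149 wild-type peaks (42.6%) shared both values with at least 1 other peak. NME1 and NME2 encode closely related proteins and have pseudogene copies, so reads can be placed at the wrong copy.

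In the purine branch, PAICS and IMPDH2 both held a peak at a start and weaker ones further on. PAICS encodes the bifunctional enzyme that carboxylates the purine precursor and then adds aspartate. Its strongest peak (chr4:56436272-56436440) had a fold enrichment of 16.9, a −log10 q of 32.2 and rank 189. The summit lay 25847 bp into the annotated span but 94 bp downstream of an annotated start, because the span begins at a start far upstream of the 2 others. The following peaks, 5504 and 12286 bp downstream of that same start, had 8.76 and 13.3.

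The remaining PAICS peak lay on the opposite strand. It runs over chr4:56435281-56435561 on the minus strand, with a fold enrichment of 11.8 and rank 494, and it overlaps PPAT, which encodes the amidotransferase that commits ribose phosphate to purine synthesis. Its summit was 210 bp from the start of PPAT, and 949 bp from that of the plus-strand PAICS peak. The 2 neighbouring genes of the purine pathway, on opposite strands, thus each had a wild-type peak close to a start. Of the 1980 wild-type peaks in protein-coding genes, 2.32% lay on the strand opposite to the host gene, where the host was the shortest protein-coding gene overlapped. Peaks in host genes of unknown strand are among the 1980 but could not be called opposite, so 2.32% is a lower limit.

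IMPDH2 encodes inosine monophosphate dehydrogenase, the rate-limiting enzyme of guanine nucleotide synthesis. Its peak at the start (chr3:49029219-49029390, minus strand) had a fold enrichment of 14.2, a −log10 q of 44.0 and rank 305, with the summit 96 bp from the start. A second peak 1583 bp into the gene had 4.82, rank 1799, the lowest of the 19. The first was 2.95 times the second.

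The pyrimidine genes CAD and CTPS1 held 1 peak between them. CAD, named for carbamoyl phosphate synthetase, aspartate transcarbamylase and dihydroorotase, held 1 wild-type peak (chr2:27225100-27225242, plus strand) with a fold enrichment of 14.1, a −log10 q of 21.4 and rank 311. Its summit lay 7790 bp into the gene, at 29.3% of its length. CAD was the only one of the 8 genes with no peak within 500 bp of any annotated start, with the span start used for PPA1 and IMPDH2. CTPS1, with a span of 32870 bp on chromosome 1, held no peak, and the nearest wild-type peak lay 882492 bp away.

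PPA1, the cytosolic inorganic pyrophosphatase gene, was the only one of the 9 with a peak for more than 1 form of MYC. In the 3A list its peak (chr10:70233240-70233374, minus strand) had a fold enrichment of 13.6 with a −log10 q of 31.4, and in the wild-type list the peak (chr10:70233217-70233392) had 31.6 and 112. These values are set side by side, since depth and control may differ between lists. The 3A peak, of 135 bp, lay wholly within the wild-type peak of 176 bp and covered 76.7% of it. The summits fell on the same base, 123 bp from the start of the gene. By fold enrichment the PPA1 peak ranked 14 of 103 in the 3A list and 10 of 2149 in the wild-type list. In the wild-type list it stood between the transferrin receptor gene TFRC (32.0) and the prohibitin gene PHB2 (30.9). By −log10 q the PPA1 peak ranked 54 of 103 in the 3A list and 44 of 2149 in the wild-type list. Ranks in lists of such different length do not show a change.

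**Figure D3:**
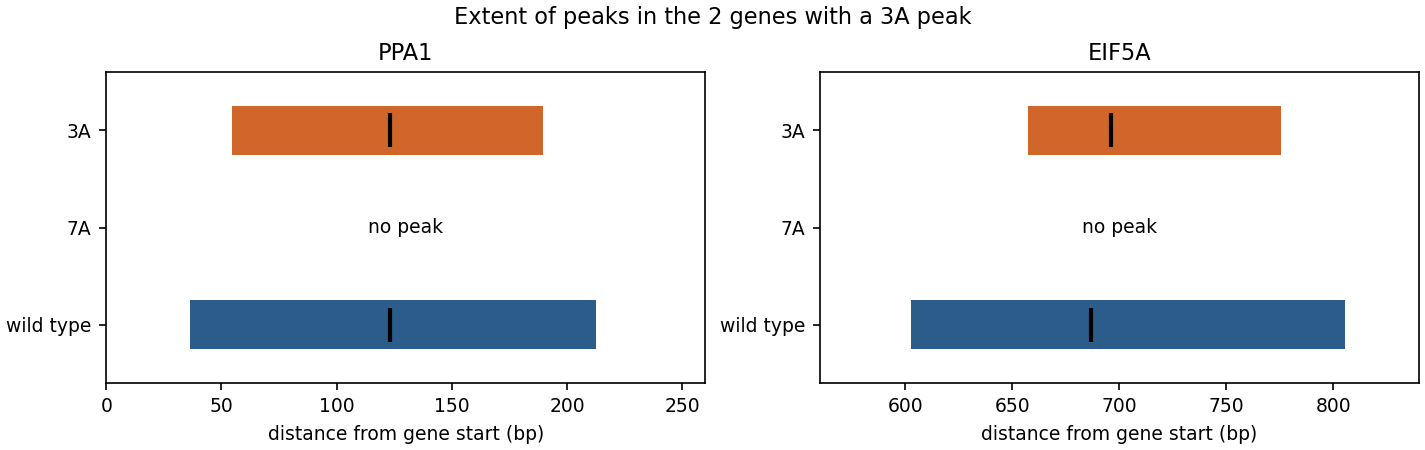
Extent of the peaks in PPA1 and in EIF5A, the 2 genes of the pathway lists with a 3A peak, as the distance from the gene start in bp (bars, 3A above, 7A in the middle, wild type below; vertical marks are summits). In both genes the 3A bar lies within the wild-type bar, and the 7A row is empty. The other 2 wild-type peaks of EIF5A lie outside the range drawn.

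The polyamine genes ODC1 and SRM had peaks of moderate fold enrichment. ODC1, the rate-limiting enzyme of polyamine synthesis and a well-known MYC target, held 1 wild-type peak (chr2:10447970-10448314, minus strand). At 345 bp it was the widest of the 19, and its summit lay 97 bp from the start of the span. Its rank depended on the measure, 1003 by fold enrichment (8.42) and 172 by −log10 q (58.1). SRM, spermidine synthase, held 3 peaks over its 5430 bp on the minus strand of chromosome 1. The one with the summit 164 bp from the start had a fold enrichment of 7.52, the one at 4194 bp had 15.7 (rank 231), and the one 197 bp before the end of the span had 8.58. In SRM, unlike NME1, NME2, PAICS and IMPDH2, the strongest peak was therefore not the one nearest to an annotated start.

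Between the forms of MYC, 1 of the 19 wild-type peaks was met by a 3A peak (5.26%, 95% Wilson interval 0.935 to 24.6), where 3.54% of all wild-type peaks were. In the other direction the single 3A peak of the group met a wild-type peak. No 7A peak met any of the 19, and 1.40% of all wild-type peaks were met by one. If a count of 0 is taken to allow up to 3, the share could be up to 15.8%. The 95% Wilson interval for it ends at 16.8%. These limits cover counting error over peaks only, and several of the 19 peaks share a gene. Overlap was also among the values by which the genes were chosen. A difference between these genes and the rest of the list was therefore not tested. High fold enrichment did not go with a 3A peak throughout the group. Of the 100 top wild-type peaks by fold enrichment, 15 were met by a 3A peak and 8 by a 7A peak. The group had 3 peaks among the 100, of which that of PPA1 was met by 3A and the 2 of NME1 by neither mutant.

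The wider pathways were described with 76 genes taken from textbook steps of nucleotide, one-carbon, polyamine and pyrophosphate metabolism, the 9 genes included. The list was written with earlier results of these data known, so its shares are a description only. The intervals cover counting error over genes and no difference from other genes was tested. Of these, 2 held a 3A peak, 0 held a 7A peak and 31 held a wild-type peak (40.8%, 95% Wilson interval 30.4 to 52.0), beside 6.78% of all protein-coding genes. Without the 9 genes, 23 of 67 held a wild-type peak (34.3%, 24.1 to 46.3). The files used here hold no expression levels, and the part of expression in these shares was not tested. The median of each gene's highest fold enrichment was 10.7 over these 23 genes, against 8.98 over all 1359 protein-coding genes with a wild-type peak.

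**Figure D4:**
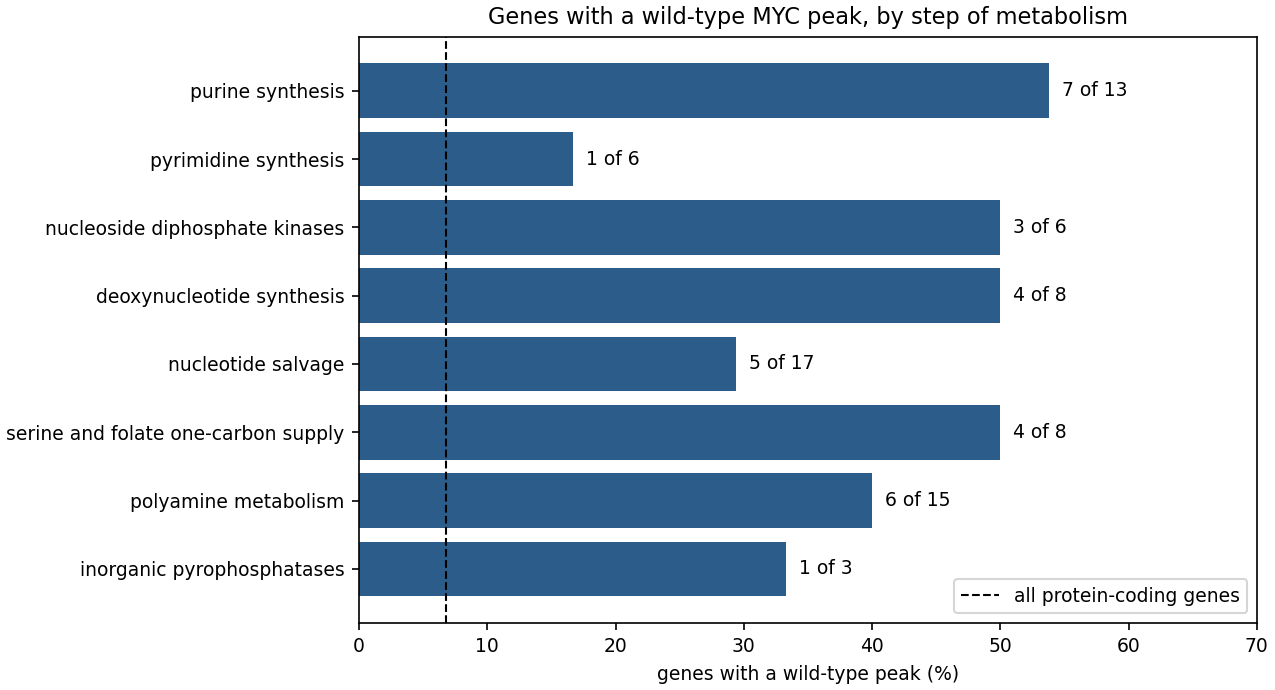
Share of genes with a wild-type peak in each list of pathway genes (bars, in percent, with the counts beside them), and the share over all protein-coding genes (dashed line, 6.78%). Among the bars, purine synthesis has the highest share, 7 of 13, and pyrimidine synthesis the lowest, 1 of 6. The bars count the 9 genes, which were chosen by their peaks. Without them purine synthesis has 5 of 11, polyamine metabolism 4 of 13 and nucleoside diphosphate kinases 1 of 4. Pyrimidine synthesis then has 0 of 4 and the pyrophosphatases 0 of 2. Deoxynucleotide synthesis and one-carbon supply, with none of the 9, have 4 of 8 each, the highest share without the 9 genes.

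Counting the chosen genes PAICS and IMPDH2, purine synthesis had a wild-type peak in 7 of 13 genes. Besides PAICS, IMPDH2 and PPAT these were GART, a trifunctional enzyme of the early pathway (highest fold enrichment 17.5), ADSL, adenylosuccinate lyase (10.9), IMPDH1, the sister gene of IMPDH2 (6.47), and ADSS2, adenylosuccinate synthase (6.47). PFAS, ATIC, GMPS, ADSS1, PRPS1 and PRPS2 held none. Pyrimidine synthesis had a peak in CAD only, while DHODH, UMPS, CTPS1, CTPS2 and CMPK1 held none. Of the 6 nucleoside diphosphate kinase genes, NME4, a mitochondrial member, followed NME1 and NME2 with 7.06. Of the 3 inorganic pyrophosphatase genes listed, PPA1 alone held a wild-type peak, and PPA2 and LHPP held none.

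Deoxynucleotide synthesis had peaks in 4 of 8 genes. They were RRM1, the large subunit of ribonucleotide reductase (11.3), DCTPP1, a pyrophosphatase of deoxycytidine nucleotides (10.6), DUT, which removes dUTP (7.19), and TYMS, thymidylate synthase (6.96). RRM2, the partner subunit of RRM1, had no peak. In nucleotide salvage 5 of 17 genes had one. They included the uridine-cytidine kinase gene UCK2 (11.3), the adenosine kinase gene ADK (10.9), the adenine phosphoribosyltransferase gene APRT (10.8) and the purine nucleoside phosphorylase gene PNP (9.96).

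The supply of one-carbon units from serine and folate had peaks in 4 of 8 genes, MTHFD1 (17.8), the mitochondrial serine hydroxymethyltransferase gene SHMT2 (15.2), MTHFD2 (7.17) and the serine pathway gene PSAT1 (7.12). Of the 15 polyamine genes, 6 held a wild-type peak, and in 5 of these 6 a summit lay no more than 500 bp from where the span starts. Over all the pathway lists, 19 of the 31 genes with a wild-type peak had such a summit. The same share of genes was not measured over all protein-coding genes, so neither count shows an excess of start peaks. Besides SRM and ODC1, the 5 polyamine genes included OAZ1, the antizyme that turns ODC1 protein over, with 3 peaks (highest 10.7). The others were the antizyme inhibitor gene AZIN1 (7.99) and MTAP, which salvages the methylthioadenosine left by polyamine synthesis (5.80). The sixth was EIF5A, the translation factor that carries hypusine, a residue made from spermidine.

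EIF5A was the only gene of the 76 besides PPA1 with a 3A peak. The 3A peak (chr17:7307657-7307774) had a fold enrichment of 8.42 and rank 35 of 103, and the wild-type peak at that place (chr17:7307602-7307804) had 17.3 and rank 171 of 2149. The 3A peak lay wholly within the wild-type peak and covered 58.1% of it, with summits 9 bp apart. By −log10 q the wild-type peak, at 174, stood at rank 19. The other 2 wild-type peaks of EIF5A, with 17.7 and 6.83, were met by no mutant peak.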

How the data were processed

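The data are 3 deposited peak lists in narrowPeak layout, 1 per form of MYC, from eCLIP libraries of doxycycline-treated cells. Per the submitters' processing notes, reads were processed with cutadapt, BWA and MACS2 on hg38. Versions, settings, the control used and any pooling of replicates are not stated in the sources at hand. Each deposited peak has a fold enrichment, a ratio given by the authors. The authors also deposited a −log10 q for each peak, and the lowest value was 2.34 in the 3A list, 2.90 in 7A and 2.04 in wild type. No list carries read counts, so depth is unknown.

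Coordinates were turned to 1-based positions and compared with 59792 placed genes of a RefSeq table of GRCh38.p14. That table gives no exons or strands. Strands and annotated starts came from RefSeq start windows, at hand for 7 of the 9 genes, and elsewhere the strand of the peak was used. The 76 pathway genes were written from textbook knowledge, and all 76 matched the table. The members and lists were chosen with earlier results of these data known. Genes named in the text are the 9 members, pathway genes with a peak, hosts of the peaks ranked just above and below the 3 highest member peaks, and hosts of mutant peaks in members. Some pathway genes without a peak are named as such, and a few genes that this rule selects are not reported here. No test was run. The overlap counting was tested on simulated data. Alternatives were other cutoffs on −log10 q and fold enrichment, other rules for placing a peak in a gene, other overlaps, start distances and ranking values. The work was done in Python 3.11.15 with SciPy 1.17.1, NumPy 2.4.6 and pandas 2.3.3.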

Additional observations from a re-analysis of the deposited data

How the results depend on the processing

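Alternatives were run for 8 counts and for the median rank of the 19 wild-type peaks, 48 values in all. All 46 alternative counts were within 1.5 times of those reported. The median rank stood at 14.5% of the wild-type list by fold enrichment. It stood at 27.2% by −log10 q, and at 12.6% when only the highest peak of each gene was ranked among genes with a peak. The number of genes with a wild-type peak was 8 under every alternative run, and their peaks numbered 17 to 19. Pathway genes with a wild-type peak numbered 22 to 33. The 33 came from spans extended by 500 bp, which added NME3 and PSPH. The members with a 3A peak stayed at 1 and those with a 7A peak at 0 under each alternative. The settings by strand of the gene and by any annotated start were chosen after seeing the data. No paired analysis was possible because each form of MYC has 1 list without replicate columns, which also means that leaving out a replicate could not be tried. Unknown depth limits what the absence of a peak can show.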

Other observations

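Of 15 annotated copies of NME1, NME2, PAICS, SRM and ODC1, 0 held a 3A peak, 0 a 7A peak and 2 a wild-type peak. Of all 17088 annotated pseudogenes, 149 (0.872%) held a wild-type peak, and no test was made of the difference. The peak in PAICSP4 stood at rank 136 by fold enrichment (18.2, with a −log10 q of 35.5), beside 16.9 and 32.2 for the strongest peak of PAICS itself. The peak in NME2P1 had 7.84 and rank 1127, below all 3 peaks of NME2. Which copy the reads came from was not tested, since the lists hold no reads.

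The other protein-coding windows in which a wild-type peak covered an E-box, besides those of NME1, NME1-NME2 and ODC1, were at EBNA1BP2, a factor of ribosome assembly, DDX21, a nucleolar RNA helicase, and M6PR, a mannose 6-phosphate receptor. They were chosen after their values were seen. The covered part was 22 bases in EBNA1BP2, 293 in DDX21 and 104 in M6PR, against 30 in NME1 and 293 in ODC1.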
